A study of Mus musculus with 8 samples.

Results

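Cdh2, Cdh11, Cdh13, Dsg2, Dsc2, Dsp, Jup, Pkp1, Pkp2 and Pkp4 are 10 genes of cell-to-cell adhesion, and they are described here out of 18193 genes measured on 8 expression arrays. The genes were chosen by name as cadherin and desmosome genes, with earlier results of these data known. Each gene's value was selected on level, without use of the group labels. Of the probe sets annotated to that gene alone, the one with the highest mean over the 8 arrays was used. A group in which a probe set is high raises that mean, so the choice is not independent of the groups. The RNA came from BALB/c mice 6 to 9 days old, and the organ was the small intestine. ICC-DMP (3 arrays) and ICC-MY (3 arrays) are classes of interstitial cells of Cajal (ICC), which pace gut muscle and relay signals from nerves; the first lies in the deep muscular plexus and the second in the myenteric region. The third group, tunica muscularis (2 arrays), is the muscle coat that contains both classes together with smooth muscle, neurons, glia, macrophages and the serosal covering. No allele or drug treatment is named for any group. The samples are labelled biological replicates, and neither the isolation of the cells nor the number of animals per sample is stated in the labels, so the p-values measure the spread between these samples.

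Classical cadherins are transmembrane proteins that hold neighbouring cells together through calcium-dependent contacts and bind catenins inside the cell, which link them to actin. Desmosomes are a second kind of junction: desmogleins and desmocollins span the gap, plakoglobin and plakophilins bind their tails, and desmoplakin ties the plaque to intermediate filaments. In gut muscle, adhesion and gap junctions couple ICC among themselves and to smooth muscle.

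All levels are on the deposited log2 scale, on which a difference of 1 is a doubling. Levels are compared between groups for the same probe set and not between genes, because probes differ in brightness. The median of all values was 4.23 and the lower quartile was 3.14, below which differences are poorly measured. The array medians ranged from 4.18 to 4.31. On 2 narrow-range arrays, tunica muscularis replicate 1 and ICC-MY replicate 1, the values spread less (SD 2.06 and 1.98, against 2.22 to 2.31 on the others), with bright genes lower than on the other arrays of their group. The labels were compared with marker lists. These lists were chosen with earlier results of these data known, so the comparison is no independent check. Of 10 markers of interstitial cells of Cajal, 4 were higher in ICC-DMP and 8 in ICC-MY than in tunica muscularis, including Kit and Ano1 in both; Gja1, the other marker besides Ano1 with the highest mean, was called in neither. The counts were 2 in ICC-DMP without any 1 of its 3 arrays or without tunica muscularis replicate 1, and 6 to 9 in ICC-MY with 1 array left out. The Ano1 calls are among those that ended, at a difference of 1.35 in ICC-DMP (adjusted p = 0.171) and 1.29 in ICC-MY (adjusted p = 0.155) without tunica muscularis replicate 1.

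Between the ICC classes, 7 of the 10 genes differed: Cdh11, Cdh13, Dsg2, Pkp2 and Pkp4 were higher in ICC-DMP, while Dsp and Dsc2 were lower. The call was limma's moderated test at a Benjamini-Hochberg adjusted p under 0.05 over all genes. Over all genes, 5.36% were called higher and 3.3% lower in ICC-DMP. Because the members were chosen with earlier results of these data known, their counts are no test of the list. This split of calls, 61.9% of them higher, became 50.2% after quantile normalization and 47.4% without ICC-MY replicate 1; with the replicate number as a block 2617 genes were called rather than 1577. Against tunica muscularis, ICC-DMP had 3 members higher (Cdh11, Cdh13, Pkp4) and 3 lower (Cdh2, Dsp, Pkp2), where 3.72% of all genes were called higher and 7.32% lower. ICC-MY had 1 member higher (Dsp) and 3 lower (Cdh2, Dsg2, Pkp2), where 4.05% of all genes were called higher and 9.78% lower. These backgrounds moved when 1 array was left out: the genes called higher numbered 395 to 887 in ICC-DMP and 411 to 1255 in ICC-MY, lowest in both without tunica muscularis replicate 1 and highest in both without ICC-MY replicate 1, where the main counts were 677 and 736; quantile normalization gave 1033 and 1434. The median difference of the 10 genes was -0.48, -0.46 and 0.86 in ICC-DMP minus tunica muscularis, ICC-MY minus tunica muscularis and ICC-DMP minus ICC-MY, beside -0.04, -0.02 and -0.02 over all genes. The 3 comparisons share arrays and are not independent of each other. Jup and Pkp1 were called in none of them.

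**Figure D1:**
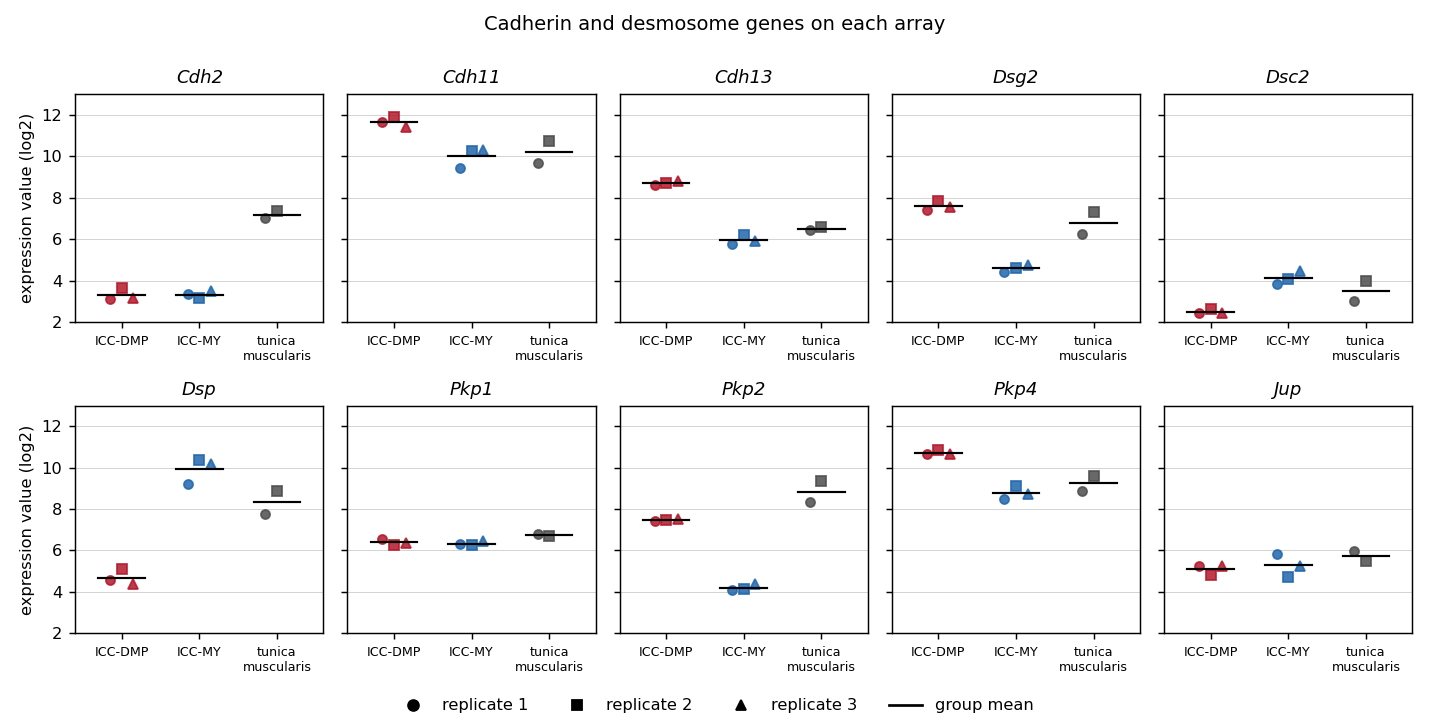
Level (log2) of each of the 10 genes on each of the 8 arrays, by group; every point is 1 array, its shape is the replicate number, and the lines are group means. Cdh2 is low on all 6 ICC arrays and Dsp is low on the 3 ICC-DMP arrays.

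Cdh2 encodes N-cadherin, the classical cadherin of neural and mesenchymal cells. It read 3.09, 3.63 and 3.18 in ICC-DMP, 3.35, 3.16 and 3.49 in ICC-MY, and 7.03 and 7.36 in tunica muscularis. Both tissue arrays were far above all 6 ICC arrays, and the ICC classes overlapped. Cdh2 was lower in ICC-DMP than in tunica muscularis (difference -3.89, SE 0.21, adjusted p = 1.38e-05) and lower in ICC-MY (difference -3.86, SE 0.21, adjusted p = 1.35e-05). The ICC readings lie near the lower quartile of all values, so no fold is given. Between the classes the difference was -0.03 (95% interval -0.46 to 0.40). Its second probe set was lower too, by -2.43 in ICC-DMP and -2.18 in ICC-MY. In these RNA samples, fewer cells of a type and less RNA per cell cannot be told apart.

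Marker lists of enteric neurons, mesothelium and enteric glia were set beside Cdh2. The macrophage markers, all lower in both classes too, are given further below. The mean level of 9 enteric neuron markers was 3.82 to 3.87 in ICC-DMP, 3.93 to 3.96 in ICC-MY and 8.47 to 8.93 in tunica muscularis. Of the 9, all 9 were lower in ICC-DMP and 8 in ICC-MY. The 2 with the highest mean were Stmn2 and Elavl3. Elavl3 was the exception in ICC-MY, where it differed from tunica muscularis by 0.08 (limma adjusted p = 0.83). The 10 mesothelial markers, led by Krt8 and Upk1b, were all lower in both classes, at 4.18 to 4.27, 3.93 to 4.05 and 9.03 to 9.41. Of 6 enteric glia markers, 2 were lower in each class, with list means of 4.83 to 5.04, 4.55 to 4.69 and 5.99 to 6.14. The part of these cells in the Cdh2 difference was not tested.

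Cdh11 encodes cadherin-11, a classical cadherin of mesenchymal cells. Its level was 11.67, 11.91 and 11.41 in ICC-DMP, 9.45, 10.27 and 10.31 in ICC-MY, and 9.68 and 10.74 in tunica muscularis. Every ICC-DMP array was above every other array, and ICC-MY and tunica muscularis overlapped. Cdh11 was 3.15-fold higher in ICC-DMP than in ICC-MY (difference 1.66, SE 0.33, adjusted p = 0.0159) and 2.74-fold higher than in tunica muscularis (difference 1.46, SE 0.37, adjusted p = 0.0397). ICC-MY minus tunica muscularis was -0.20 (95% interval -1.05 to 0.64). The call against tunica muscularis ended without tunica muscularis replicate 1 (difference 0.92, adjusted p = 0.221), when ICC-DMP replicate 1, 2 or 3 was left out (adjusted p = 0.12, 0.135 and 0.0717), when ICC-MY replicate 2 or 3 was (0.0556 and 0.0541) and after median centring of the arrays (0.0604). The call between the classes ended when ICC-DMP replicate 1 or replicate 2 was left out (adjusted p = 0.0708 and 0.0786). The second Cdh11 probe set gave 2.09 between the classes (adjusted p = 0.000344) and 1.86 against tunica muscularis (adjusted p = 0.000785), adjusted over all probe sets.

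Cdh13 encodes T-cadherin, which is anchored in the membrane by a lipid and lacks the catenin-binding tail of the classical cadherins. The ICC-DMP arrays read 8.62, 8.73 and 8.82, the ICC-MY arrays 5.78, 6.22 and 5.94, and the tunica muscularis arrays 6.43 and 6.57. The 3 groups did not overlap. Cdh13 was 6.72-fold higher in ICC-DMP than in ICC-MY (difference 2.75, SE 0.15, adjusted p = 3.3e-05) and 4.67-fold higher than in tunica muscularis (difference 2.22, SE 0.17, adjusted p = 8.95e-05). ICC-MY lay -0.53 from tunica muscularis and did not pass the test (95% interval -0.92 to -0.13, adjusted p = 0.0878). A second bright probe set gave 3.03 between the classes and 2.78 for ICC-DMP minus tunica muscularis. A further pair of Cdh13 probe sets, with means of 3.02 and 2.45 over the 8 arrays, passed no test.

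Of the desmosomal cadherins, Dsg2 was higher and Dsc2 lower in ICC-DMP than in ICC-MY. Dsg2 encodes desmoglein-2, the desmoglein found most widely outside stratified epithelium. It read 7.42, 7.85 and 7.57 in ICC-DMP, 4.43, 4.62 and 4.76 in ICC-MY, and 6.26 and 7.32 in tunica muscularis. ICC-MY was below both other groups on every array, and the lowest ICC-DMP array was 0.10 above the higher tissue array. Dsg2 was 8.07-fold higher in ICC-DMP than in ICC-MY (difference 3.01, SE 0.27, adjusted p = 0.000244) and 4.55-fold lower in ICC-MY than in tunica muscularis (difference -2.19, SE 0.30, adjusted p = 0.00161). ICC-DMP minus tunica muscularis was 0.83 (95% interval 0.14 to 1.51, adjusted p = 0.138); it passed with the replicate number as a block (0.80, adjusted p = 0.0434) and without tunica muscularis replicate 2 (1.36, adjusted p = 0.0113). The ICC-MY readings of Dsg2 lie near the median of all values, 4.23, so the folds that involve ICC-MY are uncertain in size. Another Dsg2 probe set gave 2.81 between the classes, and 4 dim ones, with means from 2.73 to 3.82, passed no test.

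Dsc2 encodes desmocollin-2, the partner of desmoglein-2. Its level was 2.42, 2.63 and 2.46 in ICC-DMP, 3.82, 4.06 and 4.47 in ICC-MY, and 3.0 and 3.97 in tunica muscularis. Every ICC-DMP array was below the lower quartile of all values, and ICC-MY and tunica muscularis overlapped. ICC-DMP was lower than ICC-MY (difference -1.61, SE 0.27, adjusted p = 0.00612). ICC-DMP minus tunica muscularis was -0.98 (adjusted p = 0.0779), and it passed with the replicate number as a block (-1.06, adjusted p = 0.0173) and with tunica muscularis replicate 1 left out (-1.46, adjusted p = 0.0136), as it did with both narrow-range arrays left out (-1.46, adjusted p = 0.00303). ICC-MY minus tunica muscularis was 0.63 (95% interval -0.05 to 1.31), and 1.12 (adjusted p = 0.0381) without tunica muscularis replicate 2. The main Dsc2 probe set had a mean of 3.35 over the 8 arrays. The second Dsc2 probe set, with a mean of 3.10, gave -0.0066 between the classes and passed no test. In ICC-DMP the main probe set was the lower of the pair, at means of 2.50 and 3.09, so its choice rested on the other groups.

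Dsg2 and Dsc2 lie in 1 cluster of 9 desmosomal cadherin genes in RefSeq, in the order Dsc3, Dsc2, Dsc1, Dsg1c, Dsg1a, Dsg1b, Dsg4, Dsg3 and Dsg2. Of these, 6 had a probe set of their own. The other 4 measured genes had group means from 2.11 to 3.82. Between the classes they differed by -0.09 to 0.05, and none of the 4 was called.

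Dsp encodes desmoplakin, the plakin that ties the desmosomal plaque to intermediate filaments. It read 4.58, 5.10 and 4.37 in ICC-DMP, 9.22, 10.39 and 10.17 in ICC-MY, and 7.77 and 8.87 in tunica muscularis. The 3 groups did not overlap, with ICC-DMP lowest and ICC-MY highest. Dsp was 37.8-fold lower in ICC-DMP than in ICC-MY (difference -5.24, SE 0.39, adjusted p = 0.000102) and 12.5-fold lower than in tunica muscularis (difference -3.64, SE 0.43, adjusted p = 0.000953). It was 3.03-fold higher in ICC-MY than in tunica muscularis (difference 1.60, SE 0.43, adjusted p = 0.0432). The ICC-DMP readings lie near the median of all values, 4.23, so the folds that involve ICC-DMP are uncertain in size.

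The last of these Dsp calls was the least stable. It ended without tunica muscularis replicate 1 (difference 1.05, adjusted p = 0.227), without ICC-MY replicate 2 or 3 (adjusted p = 0.117 and 0.12), when ICC-DMP replicate 1, 2 or 3 was left out (0.0806, 0.0615 and 0.0636), with only the 2 groups compared in the fit (0.119) and after median centring (0.0664). The second Dsp probe set gave -5.53 between the classes, -4.18 for ICC-DMP minus tunica muscularis and 1.35 for ICC-MY minus tunica muscularis (adjusted p = 0.0574). The remaining Dsp probe set was dim, with a mean of 2.63, and passed no test.

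Promoter windows from RefSeq (GRCm38.p6, 250 bases before to 50 after a gene's start) were given for 3 members, Dsp, Jup and Pkp4. They were searched on both strands for CAGGTG, the E-box that Snail and Zeb repressors of cadherin genes are known to bind. The windows that hold it are shown because Dsp and Pkp4 moved in opposite directions between the classes. They are Dsp at chr13:38151044-38151343 (plus strand) and the second Pkp4 window at chr2:59161619-59161918 (plus strand), written 5′ to 3′ with the match in capitals.
Dsp: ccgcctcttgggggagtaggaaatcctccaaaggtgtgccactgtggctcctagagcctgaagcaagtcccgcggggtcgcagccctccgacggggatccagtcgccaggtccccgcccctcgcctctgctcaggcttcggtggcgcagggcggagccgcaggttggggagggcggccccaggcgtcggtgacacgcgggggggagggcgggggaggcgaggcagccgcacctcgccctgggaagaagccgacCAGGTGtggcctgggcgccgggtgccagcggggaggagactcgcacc
Pkp4: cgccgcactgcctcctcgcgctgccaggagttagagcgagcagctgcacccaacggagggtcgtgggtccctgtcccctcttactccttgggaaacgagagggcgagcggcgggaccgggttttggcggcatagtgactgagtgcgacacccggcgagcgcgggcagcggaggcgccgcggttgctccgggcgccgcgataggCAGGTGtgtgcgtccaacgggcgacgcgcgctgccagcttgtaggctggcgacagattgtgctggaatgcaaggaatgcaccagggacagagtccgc
The match starts at base 254 of the Dsp window and at base 204 of the Pkp4 window. The Jup window and the first Pkp4 window do not hold these letters. The E-box was in 20.2% of 32851 windows of this length, and a match is a description of the sequence only.

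Pkp2 encodes plakophilin-2, a plaque protein that binds desmoplakin and is known from heart muscle junctions. It read 7.43, 7.5 and 7.54 in ICC-DMP, 4.11, 4.14 and 4.38 in ICC-MY, and 8.34 and 9.33 in tunica muscularis. The 3 groups did not overlap, with ICC-MY lowest. Pkp2 was 9.71-fold higher in ICC-DMP than in ICC-MY (difference 3.28, SE 0.24, adjusted p = 0.000101) and 24.8-fold lower in ICC-MY than in tunica muscularis (difference -4.63, SE 0.27, adjusted p = 1.74e-05). ICC-DMP was 2.55-fold lower than tunica muscularis (difference -1.35, SE 0.27, adjusted p = 0.0136), a call that ended when ICC-DMP replicate 1 or replicate 2 was left out (adjusted p = 0.0583 and 0.0514). The ICC-MY readings lie near the median of all values, 4.23, so the folds that involve ICC-MY are uncertain in size. A second probe set gave 1.36 between the classes (adjusted p = 0.00945) and -2.43 in ICC-MY minus tunica muscularis. The dimmer pair gave 0.53 and 0.28 between the classes and passed no test there.

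Pkp4 encodes plakophilin-4, a member of the p120-catenin family found at adherens junctions as well as desmosomes. Its level was 10.67, 10.86 and 10.65 in ICC-DMP, 8.50, 9.10 and 8.73 in ICC-MY, and 8.87 and 9.61 in tunica muscularis. Every ICC-DMP array was above every other array, and the other groups overlapped. Pkp4 was 3.88-fold higher in ICC-DMP than in ICC-MY (difference 1.95, SE 0.23, adjusted p = 0.00103) and 2.80-fold higher than in tunica muscularis (difference 1.49, SE 0.26, adjusted p = 0.00698). ICC-MY minus tunica muscularis was -0.47 (95% interval -1.06 to 0.12). The second Pkp4 probe set gave 1.77 between the classes and did not pass (adjusted p = 0.0851).

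Smooth muscle markers were ordered as Pkp2 was, lowest in ICC-MY and highest in tunica muscularis; Dsg2 was likewise lowest in ICC-MY but not lower in ICC-DMP than in tunica muscularis. The mean of the 10 markers, led by Acta2 and Actg2, was 9.32 to 9.55 in ICC-DMP, 6.78 to 7.45 in ICC-MY and 10.01 to 10.89 in tunica muscularis. Of the 10, 8 were higher in ICC-DMP than in ICC-MY, 6 were lower in ICC-DMP than in tunica muscularis and 9 were lower in ICC-MY. The 6 became 2 without tunica muscularis replicate 2, 3 without ICC-DMP replicate 1 or 2, and 4 without ICC-DMP replicate 3. The 10 fibroblast and PDGFRA cell markers, led by Col1a2 and Dcn, had means of 8.97 to 9.53, 8.10 to 8.83 and 10.06 to 11.05, with 3 lower in ICC-DMP and 7 lower in ICC-MY than in tunica muscularis and 2 higher in ICC-DMP than in ICC-MY. The 7 became 2 without tunica muscularis replicate 2. The 2 became 0 without ICC-DMP replicate 1 or 2, and 1 without ICC-MY replicate 2 or after median centring; they became 6 with the replicate block. The part of these cells in the plakophilin, desmoglein and cadherin differences was not tested.

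Jup encodes plakoglobin, which binds both classical and desmosomal cadherins. Its level was 5.26, 4.80 and 5.25 in ICC-DMP, 5.85, 4.74 and 5.24 in ICC-MY, and 5.95 and 5.50 in tunica muscularis. The ICC classes overlapped, and their difference was -0.17 (95% interval -0.84 to 0.49). ICC-DMP minus tunica muscularis was -0.63 (95% interval -1.37 to 0.12). Jup has 1 probe set here.

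Pkp1 encodes plakophilin-1, the plakophilin of stratified epithelium. It read 6.53, 6.28 and 6.37 in ICC-DMP, 6.29, 6.25 and 6.44 in ICC-MY, and 6.79 and 6.68 in tunica muscularis. The ICC classes overlapped and differed by 0.07 (95% interval -0.23 to 0.38). Both classes lay under tunica muscularis on every array, by -0.34 (adjusted p = 0.23) and -0.41 (adjusted p = 0.12), and neither difference passed.

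**Figure D2:**
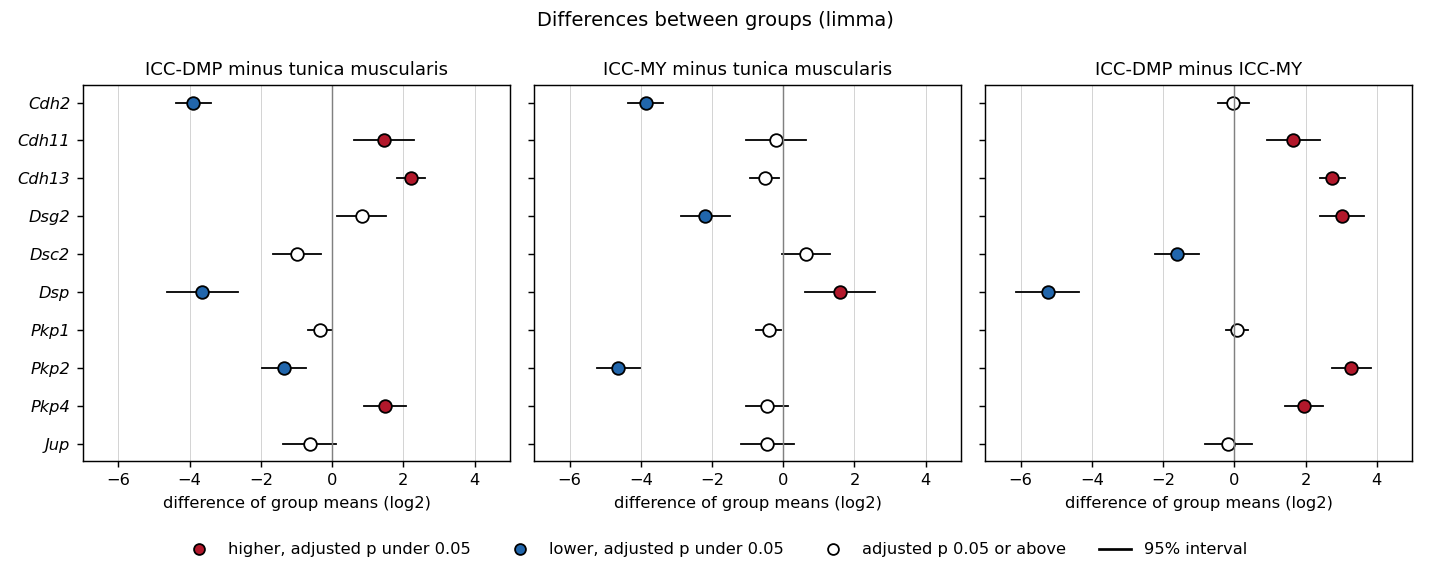
Difference (log2) of each of the 10 genes in each of the 3 comparisons, with 95% intervals from the limma fit. Dsp has the lowest value, -5.24, in ICC-DMP minus ICC-MY, and Jup and Pkp1 lie near 0 there.

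**Figure D3:**
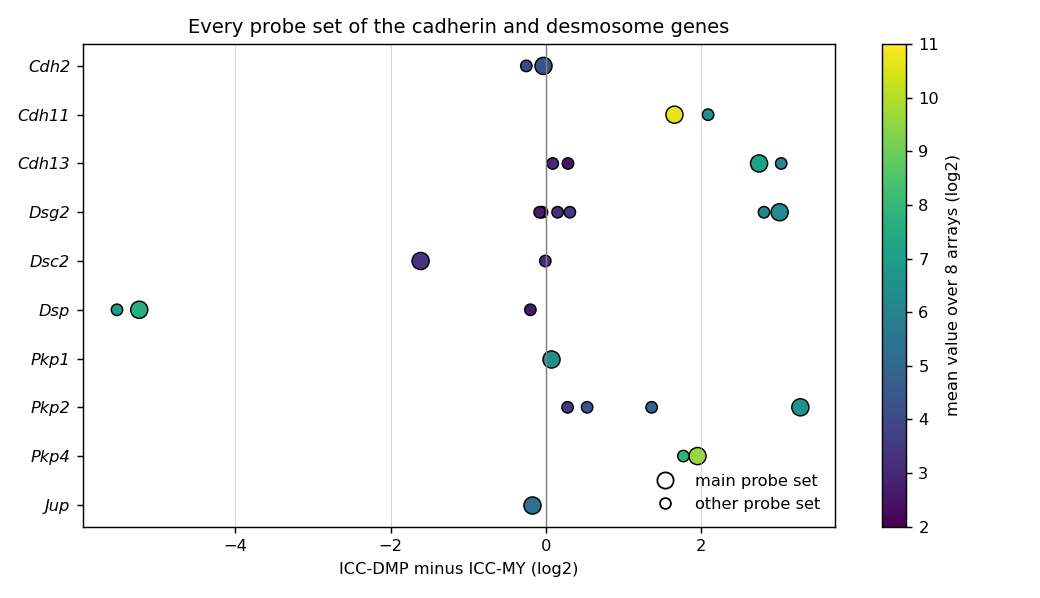
Difference (log2) of ICC-DMP minus ICC-MY on the x axis for each of the 27 probe sets of the 10 genes, 1 row a gene; the colour is the probe set's mean level over the 8 arrays, and large points are the probe sets used as main values. The dim probe sets of Cdh13, Dsp and Dsg2 lie near 0 while their brighter ones do not. Both Dsc2 probe sets are dim, with means of 3.35 and 3.10, and lie at -1.61 and -0.0066.

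Epithelial and endothelial markers were also read, since these cells carry cadherins, and so were macrophage markers. The 12 intestinal epithelial markers, led by Spint2 and Epcam, had means of 4.44 to 4.52 in ICC-DMP, 4.26 to 4.37 in ICC-MY and 5.19 to 6.64 in tunica muscularis, and 2 of the 12 were lower in each class. Without tunica muscularis replicate 1 these became 6 in ICC-DMP and 7 in ICC-MY; the tissue list mean was 5.19 on replicate 1 and 6.64 on replicate 2. The 10 endothelial markers, led by Plvap and Esam, had means of 4.29 to 4.50, 4.53 to 5.42 and 5.09 to 5.41. Against tunica muscularis, Plvap was higher in ICC-DMP (3.36) while 4 others were lower, and 1 was lower in ICC-MY. Of the 4, the calls of Kdr and Egfl7 ended without any 1 of the ICC-DMP arrays. Between the classes, 5 of the 10 were lower in ICC-DMP and 1, Plvap, was higher. The 5 became 1 without ICC-DMP replicate 1, 2 or 3 or ICC-MY replicate 1 or 2, and 3 without either tissue array. The 8 macrophage markers, led by Csf1r and Adgre1, had means of 3.55 to 3.64, 3.73 to 3.98 and 5.96 to 6.41, and all 8 were lower in both classes.

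**Figure D4:**
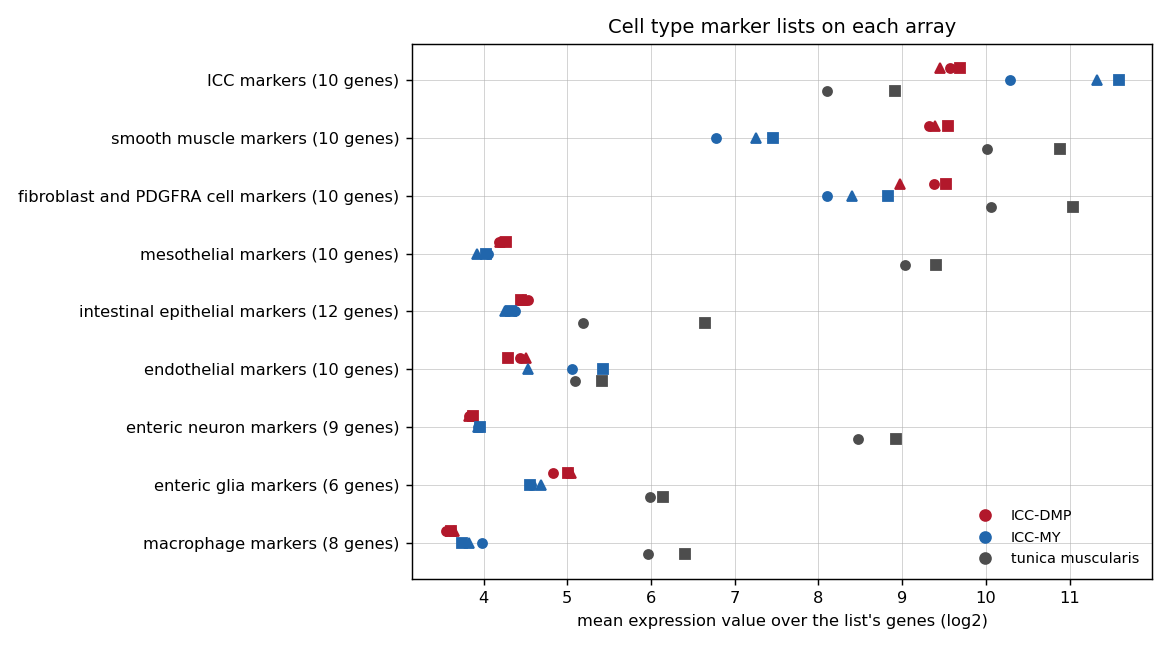
Mean level (log2) of each marker list on each of the 8 arrays; colour is the group and shape the replicate number (circle 1, square 2, triangle 3). Mesothelial and enteric neuron markers are high on the tunica muscularis arrays, and smooth muscle markers are lowest on the ICC-MY arrays.

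Of 16 other classical cadherins, 14 had a probe set of their own, and 3 were lower in both ICC classes than in tunica muscularis. Cdh6 differed by -2.77 in ICC-DMP and -2.93 in ICC-MY, Cdh10 by -2.24 and -2.77, and Cdh19, the cadherin of Schwann and glial cells, by -2.48 and -3.53. None of the 14 was called higher in either class, but with the replicate block Cdh4, or R-cadherin, was higher in ICC-DMP than in tunica muscularis (0.69, adjusted p = 0.0317) and than in ICC-MY (0.97, adjusted p = 0.0027), and Cdh5 was higher in ICC-MY without ICC-MY replicate 3 (1.18, adjusted p = 0.0071). Cdh1, the epithelial E-cadherin, differed by -1.73 in ICC-DMP and -1.51 in ICC-MY and did not pass; without tunica muscularis replicate 1 it was lower in both (-2.97 and -2.75, adjusted p = 0.000105 and 0.000114), and with the block in ICC-DMP (adjusted p = 0.0425). Between the classes Cdh10 (0.53) and Cdh19 (1.04) were higher in ICC-DMP and Cdh5, the endothelial cadherin, was lower (-1.28), and each of these calls ended without ICC-DMP replicate 1 (adjusted p = 0.107, 0.0736 and 0.0982) and in other leave-outs. The median difference of the list between the classes was -0.07, beside -0.02 over all genes.

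Of 11 other desmosome genes, 8 were measured, and the same 3 were lower in both classes than in tunica muscularis. Perp, a membrane protein of desmosomes, differed by -3.31 in ICC-DMP and -3.66 in ICC-MY. Evpl, the plakin envoplakin, differed by -1.40 and -1.83, and Ppl, its partner periplakin, by -1.63 and -1.34. Without tunica muscularis replicate 1, Ppl no longer passed in either class (adjusted p = 0.104 and 0.205). Its call also ended without ICC-DMP replicate 1 or 2 in both classes, and in ICC-MY without ICC-DMP replicate 3 or ICC-MY replicate 2 or 3. Between the classes limma called 0 of the 8, and 1 had an unadjusted p under 0.05.

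Of 11 desmosome-linked filament and linker genes, 6 were lower in ICC-DMP and 7 in ICC-MY than in tunica muscularis. The keratins Krt19 (-5.69 and -5.88), Krt8 (-4.49 and -4.76) and Krt7 (-4.26 and -4.49), which desmoplakin anchors in epithelium, had the lowest values in ICC-DMP. Krt8 and Krt19 are also in the mesothelial list given above. Synm, the muscle filament protein synemin, was 2.32 higher in ICC-DMP than in ICC-MY (adjusted p = 0.00394), and Macf1, a linker of actin and microtubules, was also higher (adjusted p = 0.0177), a call that ended without ICC-DMP replicate 1 or 2 or ICC-MY replicate 3 (adjusted p = 0.0786, 0.0668 and 0.0637). Without tunica muscularis replicate 2, the calls of Des and Synm in ICC-DMP and of Plec in ICC-MY ended (adjusted p = 0.0518, 0.103 and 0.0835). With the replicate block, Plec was also lower in ICC-DMP than in tunica muscularis (-1.25, adjusted p = 0.0011) and higher than in ICC-MY (0.54, adjusted p = 0.0377). The median difference of the list was -1.64 in ICC-DMP and -2.42 in ICC-MY.

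Of 8 catenins, Ctnna2 was lower in both classes than in tunica muscularis (-1.25 and -0.76), the second a call that ended without ICC-DMP replicate 1, ICC-MY replicate 2 or tunica muscularis replicate 2 (adjusted p = 0.053, 0.0634 and 0.144), and Ctnnal1, an alpha-catenin relative, was lower in ICC-MY (-2.45, adjusted p = 0.00031) and higher in ICC-DMP than in ICC-MY (1.72, adjusted p = 0.00154). The other 6 were not called. Ctnnd1, p120-catenin, was at -0.87 in ICC-MY minus tunica muscularis (adjusted p = 0.0785) and passed with the replicate block (-1.06, adjusted p = 0.00326), after quantile normalization (adjusted p = 0.0328) and without ICC-MY replicate 3 (adjusted p = 0.0377); between the classes it passed with the block (0.56, adjusted p = 0.0421). Arvcf passed in ICC-DMP after quantile normalization (adjusted p = 0.0252). Of 11 measured adherens junction partners, Plekha7, which binds p120-catenin, was lower in both classes (-1.28 and -1.08). Magi1, a scaffold protein, was higher in ICC-MY than in tunica muscularis (1.18) and lower in ICC-DMP than in ICC-MY (-0.76), the latter ending without ICC-DMP replicate 2 (adjusted p = 0.0555). Pard3, a polarity protein, was higher in ICC-DMP than in tunica muscularis (0.77, adjusted p = 0.0419), a call that ended with arrays centred on their medians (adjusted p = 0.0639) and without 6 of the 8 arrays, each left out in turn. Lima1, an actin-binding protein, was lower in ICC-DMP than in ICC-MY (-0.51, adjusted p = 0.0495), a call that ended without any 1 of the 6 ICC arrays. With the replicate block, Vcl and Nectin3 were lower (adjusted p = 0.021 and 0.00718) and Iqgap1 higher (adjusted p = 0.0243) in ICC-MY than in tunica muscularis, and Vcl (1.21, adjusted p = 0.00513) and Pard3 (0.66, adjusted p = 0.0157) were higher in ICC-DMP than in ICC-MY.

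Of 7 repressors of cadherin genes, Twist2 was lower in ICC-DMP than in tunica muscularis (-0.83, adjusted p = 0.0208), a call that ended without ICC-DMP replicate 2 or 3 or either tissue array (adjusted p = 0.0836, 0.0776, 0.0923 and 0.0644). Limma called 0 of the 7 in ICC-MY minus tunica muscularis and 0 between the classes, and 1 had an unadjusted p under 0.05 in each. The pair with the highest mean, Zeb1 and Snai2, was not called. Snai2 was at -0.88 in ICC-MY minus tunica muscularis (adjusted p = 0.0587) and passed with the replicate block (-0.73, adjusted p = 0.0343), without the narrow-range arrays (-1.21, adjusted p = 0.0329) and without ICC-MY replicate 1 (adjusted p = 0.0463). Zeb1 moved from -0.14 to -0.64 in ICC-DMP minus tunica muscularis without the narrow-range arrays (adjusted p = 0.0415). Twist2 passed between the classes with the block (-0.62, adjusted p = 0.0187).

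**Figure D5:**
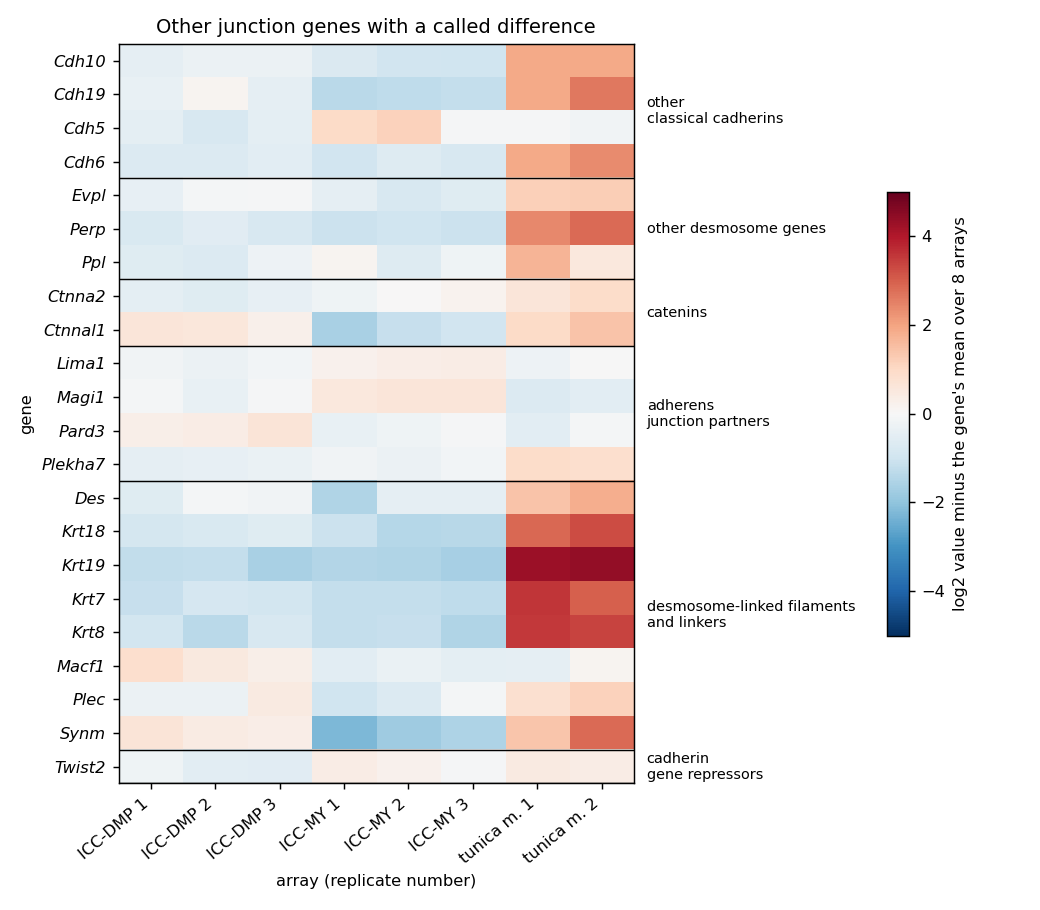
Genes of the other junction lists that were called in at least 1 comparison (rows) on each of the 8 arrays (columns); the colour is the log2 level minus the gene's mean over the 8 arrays. The keratins, Perp, Cdh6 and Cdh19 are high on the tunica muscularis arrays.

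The genes whose pattern over the 8 arrays was most like that of a member were found by the root mean square difference after each gene's mean was subtracted. Genes with provisional names, such as RIKEN, Gm, LOC, EST and clone names, were left out of this search. The search is a description with no test, and a smaller value is a closer match. For Cdh13, Nog, which encodes the BMP antagonist noggin, lay at 0.0882 and Htr4, a serotonin receptor, at 0.178, where Cdh13's own root mean square was 1.25. For Pkp4, Robo1, a guidance receptor, lay at 0.0874 and Macir at 0.15 (own value 0.909). For Pkp2, Myocd, the smooth muscle coactivator myocardin, lay at 0.187 and Hnmt at 0.209 (own value 1.94). For Dsg2, Col4a4, a basement membrane collagen chain, lay at 0.173 and Fmn1 at 0.22 (own value 1.37). For Dsp, Sgpp2, a sphingosine phosphate phosphatase, lay at 0.297 and the next gene, Atp2b2, at 0.767 (own value 2.36). For Cdh2, Slc7a14 lay at 0.167 and Fstl5 at 0.171 (own value 1.69). For Cdh11, Frmd4a lay at 0.204 and Cd1d1 at 0.227 (own value 0.857). For Dsc2, Megf9 lay at 0.141 and Eln, which encodes elastin, at 0.165 (own value 0.763).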

How the data were processed

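The values were deposited by the authors as log2 expression per probe set in a table of the series, with RMA and limma named per the submitters' processing notes; the labels give no settings or versions. RNA was amplified in repeated rounds before hybridisation, per the labels' protocols. The actin control read higher at its 3′ than at its 5′ probe set on every array. The difference was 2.92, 3.08 and 4.66 in ICC-DMP, 3.17, 3.03 and 4.28 in ICC-MY, and 2.53 and 3.53 in tunica muscularis. Its bearing on the member probe sets was not tested. Of 45101 probe sets, 34945 name 1 gene in the platform annotation, 932 several, 9160 none and 64 are controls; only the first kind was used, giving 18193 genes. Here limma 3.58.1 in R 4.3.3 was fitted once to all 8 arrays in 3 groups (5 residual degrees of freedom), with Benjamini-Hochberg adjustment over all genes; other probe sets were fitted over all single-gene probe sets. The number of arrays limits the precision. The script was tested on simulated data.

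The members and gene lists were chosen with earlier results of these data known. All members were named; of other lists, up to 3 called genes per contrast and direction with the largest differences, or where 0 were called the 2 with the highest mean; of marker lists, the 2 with the highest mean. Kit, Des, Plec and genes named only for a call that changed with the settings were named outside that rule, after their values were seen. Group labels share replicate numbers. Over 7 same-numbered pairs the correlation of deviations from group means was 0.16 to 0.61. Over 14 other pairs it was -0.61 to 0.17. Deviations cancel within a group, so correlations with the tissue arrays mirror each other, and both narrow-range arrays carry the same number. The numbers may therefore pair the samples, but these correlations cannot settle it. The main p-values come from a fit without a block for these numbers. Alternatives were this block, quantile normalization, median centring, a filter on dim probe sets, the mean of a gene's probe sets, 2-group fits, leaving out the narrow-range arrays and leaving out each array. Figures were drawn with matplotlib 3.10.9.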

Additional observations from a re-analysis of the deposited data

Results flagged for a closer look

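The effect of the class against tunica muscularis differed between ICC-DMP and ICC-MY for 7 genes by limma's test of ICC-DMP minus ICC-MY, which is the difference of both effects, since they share the tissue arrays. The differences were 1.66 for Cdh11, 2.75 for Cdh13, 3.28 for Pkp2, 1.95 for Pkp4 and 3.01 for Dsg2, all higher in ICC-DMP. They were -5.24 for Dsp and -1.61 for Dsc2, both lower in ICC-DMP. In each of the 7, all 3 ICC-DMP arrays lay on the same side of all 3 ICC-MY arrays. The share of all genes that separate in this way was not counted, and the calls come from these same arrays, so the separation adds no support.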

How the results depend on the processing

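Each of the 30 member differences was recomputed under the alternatives, 450 comparisons in all: 425 kept their side of the threshold, 19 lost the call, 6 gained it, and 0 called differences changed sign. The lost and gained calls are given beside the genes; the replicate block changed the calls of Dsg2 and Dsc2 in ICC-DMP minus tunica muscularis and no other member call. Genes of the other lists that change without the narrow-range arrays and are not given beside their list include Vcl, Iqgap1 and Tjp1 in ICC-MY minus tunica muscularis (-1.18, 0.97 and -0.86) and Vim and Ctnna2 between the classes (-0.80 and -0.59), all then past the threshold. Where the main probe set was called, other probe sets of opposite sign were dim and not called: Pkp2 at 0.19 in ICC-DMP minus tunica muscularis, and Dsg2 at 0.0814 in ICC-MY minus tunica muscularis and -0.0487 and -0.0797 between the classes. Counts of called genes moved more. In ICC-DMP minus tunica muscularis the count of 2009 became 3124 after quantile normalization, 2853 with the replicate block, and 1264 to 2480 with 1 array left out, the lowest without ICC-DMP replicate 1. In ICC-MY minus tunica muscularis 2516 became 3916 after quantile normalization, 3537 with the block and 1520 with only the 2 groups fitted. Between the classes 1577 became 2617 with the block, 2556 quantile-normalized, 2630 with the narrow-range arrays left out, and 991 to 1840 with 1 array left out (991 and 996 without ICC-DMP replicate 1 and 2). Members called ranged over 4 to 7, 3 to 5 and 6 to 7 with 1 array left out, and the block gave 8, 4 and 7. Leaving out a tissue array leaves 1, which is assumed to vary like the other groups. Signal near background limits Cdh2 in both ICC classes, Dsp in ICC-DMP, Dsc2, Pkp2 and Dsg2 in ICC-MY, and the dim probe sets.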
